A study of Mus musculus with 6 samples.

Results

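The p53 pathway and its target genes were followed as a set of 32 genes, taken by symbol from a table of read counts for 24421 genes. All 32 were in the table and all 32 passed the filter on low counts, which left 12753 genes for testing. RNA was sequenced from endothelial cells (the lining of blood vessels) derived from mouse brain. Once Fli-1 deletion had been induced, they were kept for 6 days in co-culture with vascular niche cells. The cells had been isolated by fluorescence-activated sorting. One group of 3 libraries carried the genotype label Fli-1 knockout and the other group of 3 the label WT (wild-type), and each group was numbered 1 to 3. The treatment text shared by all 6 samples says that deletion of the Fli-1 alleles was induced with 4-OHT (4-hydroxytamoxifen, the drug that switches on recombinases fused to an oestrogen receptor domain). The labels do not say whether the wild-type cells received it, which cells or promoter drove a recombinase, from which strain or age of mouse the cells came, or whether the libraries of a group were separate cultures. The p-values therefore measure only the spread between these libraries, which may be technical. In the comparison by same-numbered pairs, they measure the spread left after differences between the numbers are removed.

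The p53 protein, encoded by Trp53, is a transcription factor that is held at a low level by the ubiquitin ligase Mdm2 and its partner Mdm4. DNA damage and other stress stabilise it, and it then switches on genes that stop the cell cycle, repair DNA, promote apoptosis or adjust metabolism, and also Mdm2 itself, which closes a feedback loop. Much of its control acts on the protein and not on the amount of its own mRNA. The 32 genes were grouped by role into p53 and its feedback (6 genes), growth arrest (4), repair (4), apoptosis (11), and metabolism and other functions (7).

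Library totals ranged from 17550185 to 21385951 counts. Values are given in CPM, the read count of a gene relative to the TMM-scaled library total. For Fli1, the targeted gene, the 3 knockout-labelled libraries held 76.8, 111 and 77.4 CPM and the 3 wild-type-labelled ones 45.3, 59.6 and 45.8 CPM, so it was higher where the label says knockout (log2 fold change 0.81; edgeR adjusted p = 0.878 without and 1.25e-15 with pairing by number). A count over the whole gene includes exons outside a deleted part, and the labels do not name that part. Neither the deletion nor the assignment of the labels could therefore be checked from these counts, and every direction below rests on the labels. Below, a gene is called lower or higher by its value in the knockout-labelled libraries, and values stand in the order knockout label, then wild-type label, replicates 1 to 3. The 10 endothelial markers summed to 12769 to 14718 CPM in all 6 libraries. Fibroblast markers ranged from 112 to 1255 CPM and were highest in replicate 2 of both groups (898 and 1255 CPM), and mural cell markers ranged from 1407 to 2175 CPM. Most of the mural sum came from Tagln and Acta2. Pdgfrb ran from 10.2 to 81.3 CPM, Cspg4 from 4.49 to 81.8 and Myh11 from 2.96 to 29.1, each highest in replicate 2 of both groups. Tagln was highest in replicate 3 of both groups, and Rgs5 in replicate 2 labelled knockout and replicate 3 labelled wild-type. The 10 haematopoietic markers summed to 4.17 CPM or less, with Tyrobp, Cd3e and Spi1 at 0 reads, and the 7 brain cell markers to 1.48 CPM or less, with Aqp4 and Olig2 at 0 reads. In bulk samples, fewer cells of a type and less RNA per cell cannot be told apart.

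Promoter sequence was at hand for 24 of the 32 genes, in RefSeq windows on GRCm38.p6 from 250 bases before to 50 bases after each gene start. These were searched for the p53 response element, which p53 binds as a pair of 10-base half-sites, for the cyclic AMP response element (CRE), for an ETS core (the motif class that Fli1 and its relatives bind) and for an AP-1 site. The p53 element was searched as a 20-base stretch with no spacer, with its 4 fixed positions intact and at most 3 other mismatches; its consensus reads the same on both strands. It was present in 6 of the 24 genes, against 1.82% of the 9713 tested genes that had a window and 1.38% of all 32851 windows. The list is one of p53 targets, so such matches are part of how its genes are known. The stretches are shown because they let the genes with an element near the start be set against their values, with the matched 20 bases in capitals, on the strand of the gene:
Ccng1 (chr11:40755457-40755486, minus strand, 1 mismatch): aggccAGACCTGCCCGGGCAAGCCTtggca
Bbc3 (chr7:16309481-16309510, plus strand, 3 mismatches): cccgaCTGCAAGCCCCGACTTGTCCccagc
Aen (chr7:78895932-78895961, plus strand, 3 mismatches): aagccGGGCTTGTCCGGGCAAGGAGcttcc
Trp53 (chr11:69580279-69580308, plus strand, 3 mismatches): cggaaGGACTTGCCCTTACTTGTTAtggcg
Sesn1 (chr10:41887261-41887290, plus strand, 3 mismatches): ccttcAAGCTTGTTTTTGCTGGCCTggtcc
Tigar (chr6:127109741-127109770, minus strand, 3 mismatches): gcggcGGTCTAGCTCTGGCAAGACTccagg
The element of Ccng1 had the fewest mismatches of these 6. A match describes the letters in the window and does not show that p53 binds there.

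The CRE, searched as TGACGTCA, which reads the same on both strands, was present in 3 of the 24 genes, against 3.62% of tested genes with a window and 1.79% of all windows. It is shown because 2 of the 3 genes are growth-arrest genes that changed, with the motif in capitals:
Btg2 (chr1:134079303-134079332, minus strand): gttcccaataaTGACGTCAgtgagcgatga
Plk2 (chr13:110394971-110395000, plus strand): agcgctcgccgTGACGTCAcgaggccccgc
Ppm1d (chr11:85311158-85311187, plus strand): agcgagccgagTGACGTCAtcaggagaaag
The ETS core was searched as CCGGAA on both strands and was present in 3 of the 24 genes, against 31.4% of tested genes with a window and 14.9% of all windows. It is shown because Fli1 is the gene named in the labels:
Gadd45a (chr6:67037413-67037442, minus strand): agccccatatctCCGGAAtcgggccctttg
Mdm2 (chr10:117710748-117710777, minus strand): atggcccgtggcTTCCGGcgttctctccgc
Mdm4 (chr1:133025378-133025407, minus strand): cccccggcctccCCGGAAgctcttgcgaac
The AP-1 site TGACTCA, searched on both strands, was present in Fas and Mdm4, 2 of the 24, against 4.602% of tested genes with a window and 5.20% of all windows.

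The comparison of the groups asked which of these transcripts differ between the genotypes. In same-numbered pairs, 11 of the 32 genes fell, 2 rose and 19 did not pass (edgeR quasi-likelihood test with the replicate number as a block, Benjamini-Hochberg adjustment over all 12753 genes, false discovery rate of 0.05). The genes that fell were Btg2, Trp53inp1, Polk, Mdm2, Phlda3, Plk2, Eda2r, Ccng1, Trp53i11, Ei24 and Zmat3, and those that rose were Gadd45a and Cd82. Among all genes tested, 4.01% fell and 4.81% rose (8.81% in either direction), against 34.4% of the 32 falling. All of these changes were small: 0 of the 13 reached 1.5-fold. The median log2 fold change of the 32 genes was -0.13, against a median of 0.00 (-0.003276) over all genes tested, and the medians within pairs 1, 2 and 3 were -0.11, -0.14 and -0.11. Values below 0 were found for 26 of the 32 genes (81.25%), against 51.1% of all genes tested. Of the 19 genes that did not pass, 15 had values below 0 and 4 above.

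**Figure D1:**
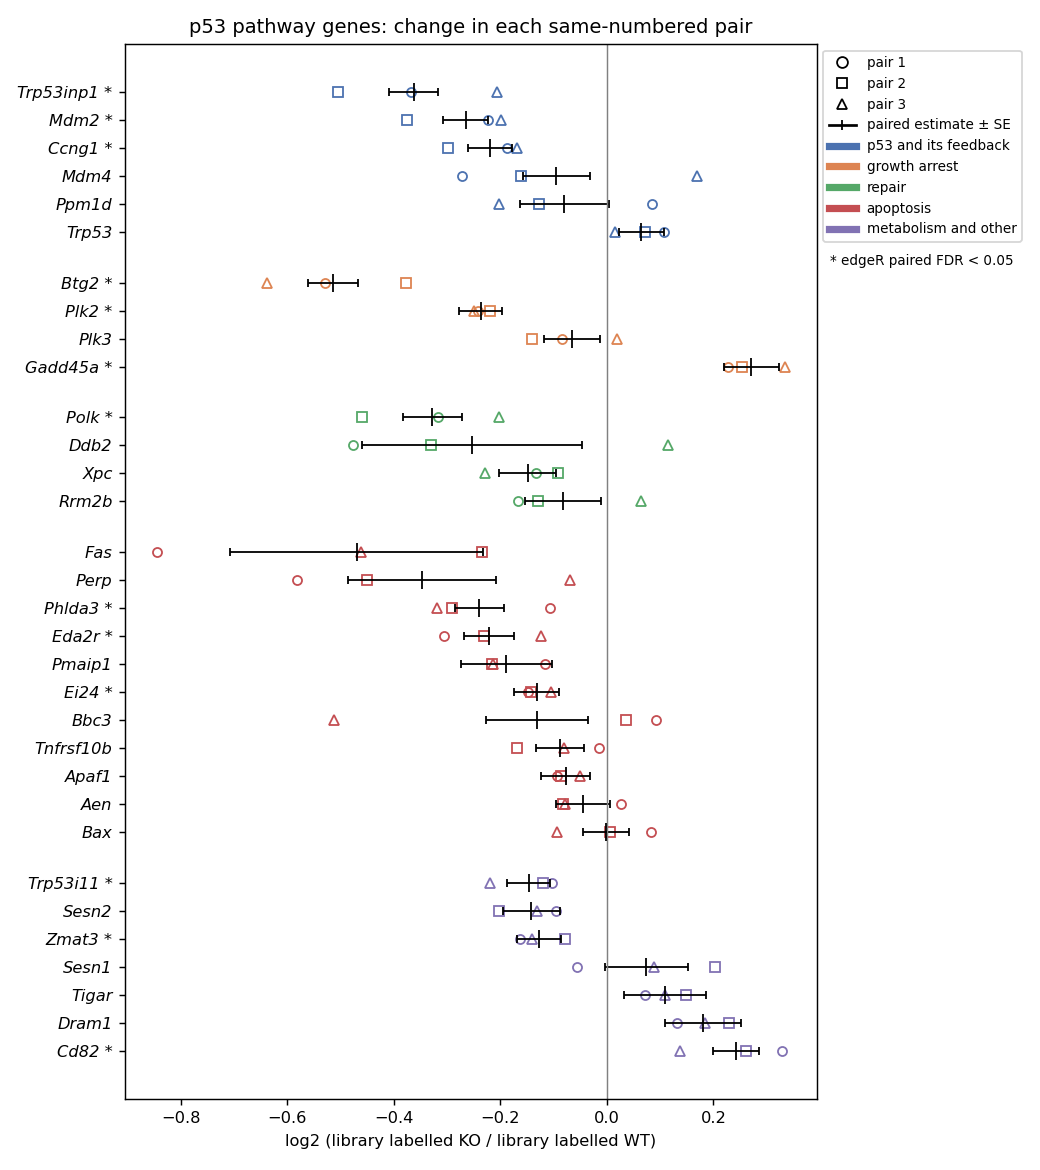
Log2 ratio of the library labelled knockout to the library labelled wild-type for each of the 32 genes, with 1 open symbol per same-numbered pair and a black bar for the paired edgeR estimate ± SE; colours mark the role groups and asterisks the 13 genes that passed. Most points lie left of 0, and all 11 apoptosis genes have estimates below 0, from -0.47 for Fas to -0.0016 for Bax, of which 3 passed.

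Without the replicate block, 0 of the 32 genes passed in the edgeR comparison of the groups, which called 0.00784% of all genes (1 of 12753). At an unadjusted p under 0.05 there were 9 of the 32, of which 7 were lower and 2 higher, against 4.79% of all genes in either direction, 2.15% lower and 2.64% higher. DESeq2 without the block called 1 of the 32, Btg2, at a log2 fold change of -0.52 with an adjusted p of 3.74e-06. The paired calls rest on 2 residual degrees of freedom and on a spread shared across genes. The values of the groups did not overlap for 6 genes that were lower (Mdm2, Btg2, Polk, Ei24, Eda2r and Zmat3) and 3 that were higher (Gadd45a, Dram1 and Cd82), against 4.96% and 5.25% of all genes tested. The direction was the same in all 3 pairs for 18 genes that were lower and 5 that were higher, against 20.1% and 20.6% of all genes. Each of the 32 genes described below as rising or falling passed in the paired edgeR comparison and did not pass in edgeR without the block.

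With 4 to 11 genes per role group, the counts by role describe single genes and not the roles. In the group of p53 and its feedback, 3 of 6 genes fell and 0 rose, against 4.01% and 4.81% of all genes tested. The median log2 ratio of the group was -0.16. Trp53 itself was at 174, 168 and 183 CPM under the knockout label against 162, 160 and 181 CPM under the wild-type label. The groups overlapped, and Trp53 did not pass (0.06 ± 0.042 on the log2 scale, SE; adjusted p = 0.411 in the paired edgeR test). Mdm2, the ubiquitin ligase that degrades p53 and is itself a p53 target, was at 199, 185 and 212 CPM against 232, 240 and 243 CPM. Every library labelled knockout was below every library labelled wild-type. Mdm2 fell by 16.8%, a log2 fold change of -0.27 ± 0.043 (SE, edgeR adjusted p = 1.63e-05). Trp53inp1, a p53 target that promotes p53 phosphorylation and also acts in autophagy, was at 137, 139 and 121 CPM against 176, 198 and 139 CPM. Replicate 3 was lowest in both groups, and so the groups touched although each pair went down. Its log2 fold change was -0.36 ± 0.047 (SE, edgeR adjusted p = 3.21e-07).

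Ccng1 encodes cyclin G1, which recruits a phosphatase to Mdm2, and carries the p53 element with 1 mismatch shown above. It was at 234, 314 and 253 CPM against 267, 386 and 285 CPM, highest in replicate 2 of both groups. The log2 fold change was -0.22 ± 0.042 (SE, edgeR adjusted p = 2.12e-04), and 76.8% of its variance in log2 CPM lay between replicate numbers and 21.7% between groups. Without pair 2 its value was -0.18 and it did not pass (adjusted p = 0.0833). Mdm4, the partner of Mdm2, was at 74.3, 74.1 and 76.0 CPM against 89.7, 82.9 and 67.6 CPM. It was lower in pairs 1 and 2 and higher in pair 3, and it did not pass (-0.09 ± 0.063, SE; edgeR adjusted p = 0.437). Without pair 3 its log2 fold change was -0.22, with an adjusted p of 0.00595. Ppm1d, a phosphatase that reverses p53 activation, had means of 17.8 ± 0.975 and 18.9 ± 1.63 CPM (SD, n = 3) and did not pass.

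Growth-arrest genes went in both directions, with 2 of 4 falling and 1 rising, against 4.01% and 4.81% of all genes tested. Btg2, an antiproliferative co-regulator of transcription and mRNA decay, was at 101, 99.1 and 92.9 CPM against 146, 129 and 145 CPM. The highest library labelled knockout was well below the lowest labelled wild-type. Its change was the largest in size of the 13 that passed: it fell by 29.99%, a log2 fold change of -0.51 ± 0.047 (SE, edgeR adjusted p = 7.15e-11), and 93.2% of its variance lay between the groups. Plk2, a polo-like kinase induced by serum and by p53, was at 288, 227 and 273 CPM against 341, 264 and 324 CPM. Replicate 2 was lowest in both groups, so the groups overlapped, and the pairs went down by nearly the same amount: -0.24, -0.22 and -0.25 on the log2 scale. The paired estimate was -0.24 ± 0.041 (SE, edgeR adjusted p = 4.53e-05). Both genes hold a CRE in the windows shown above, as does Ppm1d, which did not pass.

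Gadd45a, which binds the replication clamp PCNA and restrains the G2 to M transition, was the growth-arrest gene that rose. Its libraries were at 66.8, 70.0 and 68.3 CPM against 57.0, 58.7 and 54.2 CPM, with no overlap. The gene rose by 20.7%, a log2 fold change of 0.27 ± 0.051 (SE, edgeR adjusted p = 2.08e-04). Another counted gene, E230016M11Rik, shares 337 exon bases with Gadd45a on the opposite strand, and it had 226 reads in all 6 libraries together. The strand setting of the counting is not given in the sources used here. Plk3, a related polo-like kinase, was at 63.2, 46.5 and 68.0 CPM against 67.0, 51.2 and 67.1 CPM. It differed mainly by replicate number, which held 95.1% of its variance, and it did not pass (-0.07 ± 0.052, SE; edgeR adjusted p = 0.529). It shares 84 exon bases with Tctex1d4 on the opposite strand, which had 26 reads in all.

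**Figure D2:**
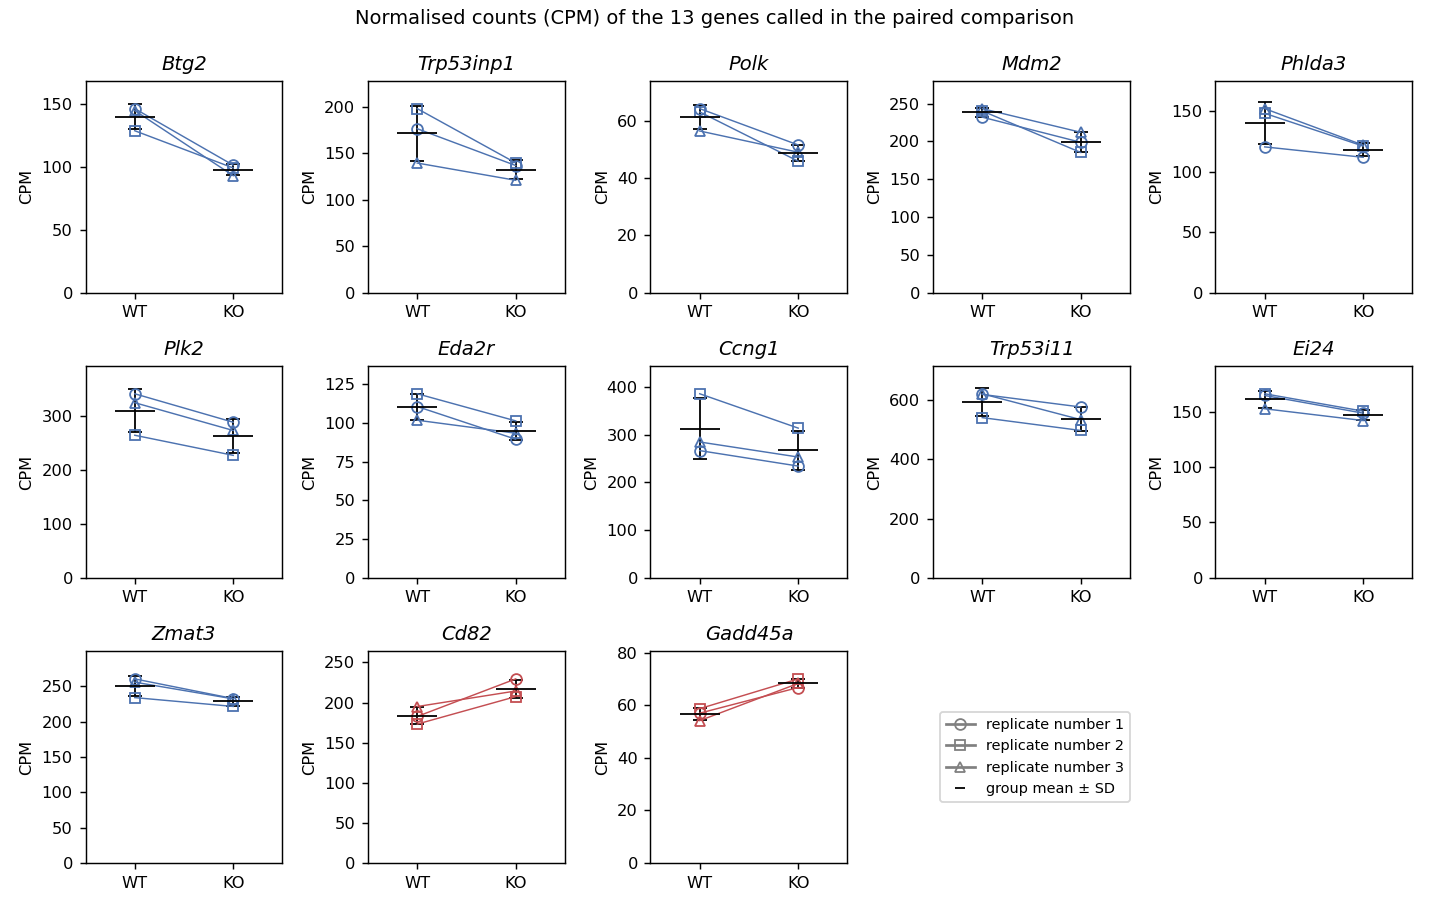
Normalised counts in CPM of the 13 genes that passed in the paired comparison, on linear axes that start at 0, in the libraries labelled wild-type (WT) and knockout (KO). Lines join libraries with the same number, and black bars are group means ± SD (n = 3). Every line goes down for the 11 genes in blue and up for Cd82 and Gadd45a in red, and Ccng1, Plk2 and Trp53i11 are the plotted genes with more variance between numbers than between groups.

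Of the 4 repair genes, 1 fell, against 4.01% of all genes tested, and all 4 had values below 0. Polk, a polymerase that copies past damaged bases, was at 51.5, 45.8 and 49.0 CPM against 64.2, 63.0 and 56.4 CPM. The groups did not overlap, and Polk fell by 20.3%, with a log2 fold change of -0.33 ± 0.055 (SE, edgeR adjusted p = 3.26e-05). Xpc, which recognises bulky lesions for nucleotide excision repair, lay just outside the threshold (-0.15 ± 0.053, SE; edgeR adjusted p = 0.0738). It was lower in 3 of 3 pairs, with means of 52.7 ± 5.66 and 58.4 ± 3.52 CPM (SD, n = 3), and it passed when libraries were scaled by library size alone (-0.18, adjusted p = 0.0276). Rrm2b, the ribonucleotide reductase subunit that supplies nucleotides for repair, had means of 25.1 ± 0.414 and 26.6 ± 2.59 CPM (SD, n = 3) and did not pass. Ddb2, the ultraviolet damage sensor, was near the lower end of the set, at 2.18 ± 0.143 and 2.59 ± 0.457 CPM (SD, n = 3). With 124 and 160 reads per group, its log2 fold change of -0.25 had an SE of 0.207, and a change of that size was not detectable at this depth. In addition, Ddb2 shares 652 exon bases, 23.8% of its own, with Acp2 on the opposite strand, which had 8470 reads in all 6 libraries together. Without the strand setting, reads of Acp2 in the shared bases and reads of Ddb2 cannot be told apart, so the value listed for Ddb2 is uncertain.

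All 11 apoptosis genes had estimates below 0, as did 51.1% of all genes tested. Of the 11, 3 fell, against 4.01% of all genes tested. With 1 pair left out, the values of Bbc3 and Bax could turn positive. Phlda3, which blocks the survival kinase Akt at the membrane, was at 112, 121 and 122 CPM against 120, 148 and 152 CPM. Its fall was larger in pairs 2 and 3 than in pair 1, and the groups overlapped by 1 library. The log2 fold change was -0.24 ± 0.046 (SE, edgeR adjusted p = 2.34e-04). Eda2r, a receptor of the tumour necrosis factor family, was at 89.6, 101 and 93.5 CPM against 111, 119 and 102 CPM. Its groups came close without overlapping, and it fell by 14.2% (-0.22 ± 0.047, SE; edgeR adjusted p = 9.26e-04). Ei24, an endoplasmic reticulum protein induced by p53, was at 149, 151 and 142 CPM against 165, 166 and 153 CPM. It lay just inside the threshold, at -0.13 ± 0.042 (SE, edgeR adjusted p = 0.0400), and did not pass with DESeq2 and the block (adjusted p = 0.313) or without pair 1 (0.0636), pair 2 (0.351) or pair 3 (0.0615).

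The core effectors of mitochondrial apoptosis did not pass. Bax, which permeabilises the mitochondrial outer membrane, was at 156, 144 and 163 CPM against 147, 143 and 174 CPM. Its pairs went up, almost level and down, and the log2 fold change was -0.0016 ± 0.044 (SE). Bbc3 (PUMA), which frees Bax from its inhibitors, was at 19.1, 17.4 and 17.6 CPM against 17.9, 17.0 and 25.1 CPM. Its value of -0.13 ± 0.095 (SE) rested on replicate 3 labelled wild-type: without pair 3 it was 0.065. Apaf1, the scaffold on which caspase-9 is activated, was lower in 3 of 3 pairs at 90.4 ± 4.78 and 95.4 ± 5.64 CPM (SD, n = 3), and the nuclease gene Aen was at 70.0 ± 5.70 and 72.3 ± 6.08 CPM (SD, n = 3). Tnfrsf10b, the mouse TRAIL death receptor, was at 123 ± 2.64 and 131 ± 5.13 CPM (SD, n = 3), also lower in 3 of 3 pairs.

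Bax, Aen and Apaf1 held 87.0%, 88.5% and 72.5% of their variance between replicate numbers. Another 3 apoptosis genes, Pmaip1, Perp and Fas, also differed mainly by replicate number. Pmaip1 (Noxa) was at 9.95, 22.3 and 14.0 CPM against 10.8, 25.9 and 16.3 CPM, with 96.5% of its variance between numbers, the highest share in the set. Perp, a membrane protein of desmosomes and p53-dependent death, was at 1.52, 9.04 and 5.39 CPM against 2.29, 12.4 and 5.66 CPM. The death receptor Fas was at 0.999, 2.62 and 1.10 CPM against 1.81, 3.09 and 1.53 CPM. All 3 were highest in replicate 2 of both groups, where the fibroblast markers were also highest, and all 3 were lower in 3 of 3 pairs. The part of stromal cells in these levels was not tested. None of them passed, at log2 fold changes of -0.19 ± 0.086, -0.35 ± 0.138 and -0.47 ± 0.237 (SE). Without pair 3, Perp passed at -0.48 (edgeR adjusted p = 0.0398). Fas had 89 and 133 reads per group, with as few as 19 in 1 library.

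Among the 7 genes of metabolism and other functions, 2 fell and 1 rose, against 4.01% and 4.81% of all genes tested. Their median log2 ratio was 0.07. Cd82, a tetraspanin of the cell surface known as a suppressor of metastasis, was at 229, 207 and 214 CPM against 183, 173 and 195 CPM. The groups did not overlap, and Cd82 rose by 18.3%, with a log2 fold change of 0.24 ± 0.043 (SE, edgeR adjusted p = 7.33e-05). Trp53i11, a p53-induced membrane protein gene, was at 577, 498 and 534 CPM against 620, 541 and 622 CPM. It was lower in each pair while the groups overlapped (-0.15 ± 0.041, SE; edgeR adjusted p = 0.0145). It did not pass without pair 2 (-0.16, adjusted p = 0.150) or without pair 3 (-0.11, adjusted p = 0.167). Cd82 and Trp53i11 lie near each other on GRCm38 chromosome 2, at 93419111 to 93463140 and 93187548 to 93201759, and went in opposite directions.

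Zmat3, an RNA-binding p53 target, was at 233, 222 and 232 CPM against 261, 234 and 256 CPM. The groups did not overlap, and its log2 fold change of -0.13 ± 0.041 (SE) was the closest to the threshold of those that passed (edgeR adjusted p = 0.0419). It did not pass with DESeq2 and the block (adjusted p = 0.230) or without pair 1 (0.0928), pair 2 (0.186) or pair 3 (0.134). Sesn2, a stress-induced inhibitor of mTORC1, was lower in 3 of 3 pairs but did not pass (-0.14 ± 0.054, SE; edgeR adjusted p = 0.101). It passed with scaling by library size alone, at -0.17 (adjusted p = 0.0398). Its relative Sesn1 was at 21.5 ± 1.05 and 20.4 ± 2.24 CPM (SD, n = 3) and did not pass. Dram1, a lysosomal regulator of autophagy, was at 26.9, 25.1 and 25.8 CPM against 24.6, 21.4 and 22.7 CPM. Its groups did not overlap and its value was positive, at 0.18 ± 0.071 (SE), with an edgeR adjusted p of 0.117. Tigar, which lowers glycolytic flux, was higher in 3 of 3 pairs, at 21.6 ± 1.11 and 20.0 ± 1.26 CPM (SD, n = 3), and did not pass.

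Set beside the promoter windows, 1 of the 6 genes with a p53 element near the start passed (Ccng1), and Trp53, Bbc3, Aen, Sesn1 and Tigar did not. In the whole set 13 of the 32 passed. Elements outside the windows, for example in introns, were not searched, so a gene without a match may still hold one. Of the 3 genes with a CRE, 2 fell, against 11 of the 32 in the set. Of the 3 with an ETS core, Mdm2 fell, Gadd45a rose and Mdm4 did not pass. The motifs were chosen after the values were seen, so these counts are descriptions of a few genes and not tests.

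Levels per exon length differed widely between the genes. In the libraries labelled wild-type, Trp53i11 had the highest mean, 161 CPM per kb of exon, followed by Bax at 98.2, Phlda3 at 89.97 and Ccng1 at 88.9 CPM per kb. Trp53 itself was the ninth of the 32, at 41.4 CPM per kb, close to Mdm2 at 46.9 CPM per kb. At the low end were Perp at 3.47, Rrm2b at 2.91, Fas at 1.04 and Ddb2 at 0.946 CPM per kb. The 13 genes that passed had means of 56.6 CPM or more in the libraries labelled wild-type. In the set as a whole, 19 genes had more variance between replicate numbers than between groups, and 13 the reverse. The median share of variance between groups was 34.9% for the 32 genes and 11.03% for all genes tested, and between replicate numbers 46.7% and 61.6%.

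**Figure D3:**
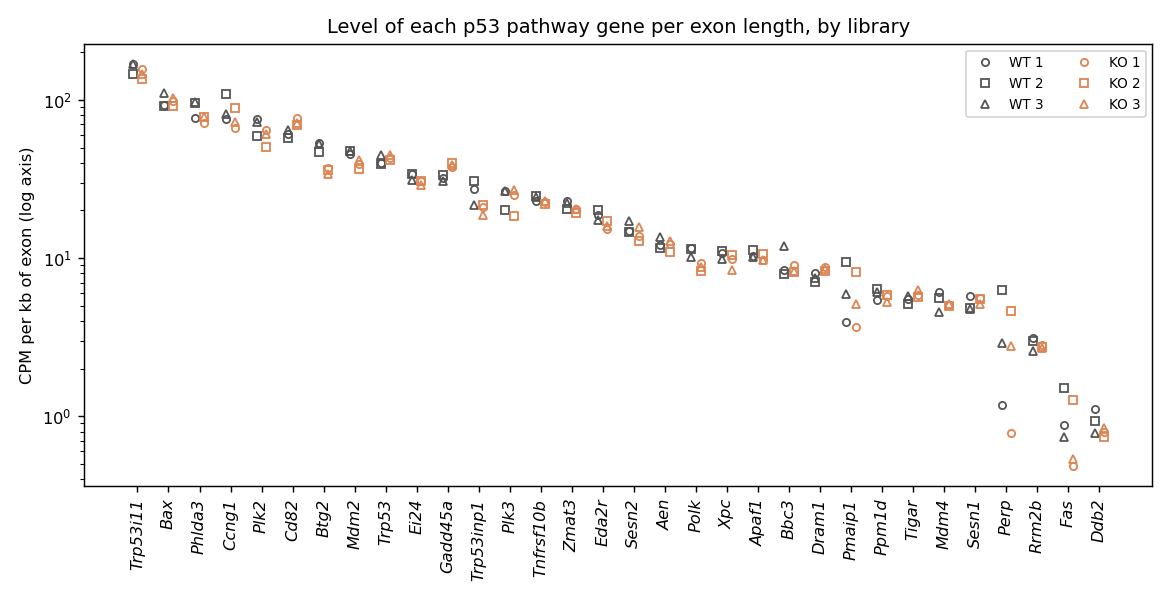
Level of each of the 32 genes in CPM per kb of exon, on a log axis, with 1 symbol per library (grey for wild-type, orange for knockout labels; symbol shapes are replicate numbers), ordered by the mean in the libraries labelled wild-type. Levels run from 161 CPM per kb for Trp53i11 to 0.946 for Ddb2, and the squares of replicate 2 stand above the others for Pmaip1, Perp and Fas.

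Other genes of the pathway were taken from separate lists. Of 36 further p53 targets tested, 4 fell and 2 rose, and the median log2 ratio was -0.04. The share that fell was 11.1%, against 4.01% of all genes tested, and 16.7% against 8.81% were called in either direction. Cdkn1a, which encodes the cyclin-dependent kinase inhibitor p21 and is the best known arrest target of p53, was at 452, 457 and 467 CPM against 492, 577 and 564 CPM. Every library labelled knockout was below every library labelled wild-type, and it fell with a log2 fold change of -0.24 ± 0.042 (SE, edgeR adjusted p = 6.19e-05). Ercc5, a nuclease of excision repair, fell by 0.33 on the log2 scale (adjusted p = 5.2e-05), and Susd6 by 0.14 (adjusted p = 0.0380). The fourth gene to fall was Ier5, an early response gene, at -0.16 (adjusted p = 0.0426). Thbs1, which encodes a secreted matrix protein that many other pathways also induce, rose with a log2 fold change of 0.24 (adjusted p = 7.05e-05). Without pair 2, Cdkn1a (-0.20, adjusted p = 0.0436) and Ercc5 (-0.30, adjusted p = 0.00551) passed, and Susd6 (adjusted p = 0.266) and Ier5 (adjusted p = 0.493) did not. Susd6 and Ier5 also did not pass without pair 3 (edgeR adjusted p = 0.303 and 0.0861) or with DESeq2 and the block (0.341 and 0.469). Both passed without pair 1 (edgeR adjusted p = 0.00252 and 0.0159).

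Regulators upstream of p53 were mostly without a call. Of 22 activators and modifiers tested, 0 fell and 2 rose, with a median of 0.02. The share called, 9.09%, was near the 8.81% of all genes tested. The 2 that rose were the checkpoint kinases Chek1, from 3.81 ± 0.293 to 5.51 ± 0.860 CPM, and Chek2, from 27.9 ± 2.06 to 33.5 ± 2.26 CPM (SD, n = 3). Their log2 fold changes were 0.53 ± 0.147 and 0.26 ± 0.066 (SE; edgeR adjusted p = 0.0150 and 0.00606). Neither passed with DESeq2 and the block (adjusted p = 0.432 and 0.217) or without pair 2 (0.0506 and 0.200), and Chek1 also did not pass without pair 3 (0.0991). In the BCL2 family and caspase list, which holds the inhibitors and executioners of apoptosis, 1 of 20 fell and 1 rose, with a median of -0.01. Its share called, 10%, was also near that of all genes tested. The gene that fell was the survival gene Bcl2l2, at -0.17 ± 0.050 (SE, edgeR adjusted p = 0.0245). It did not pass without pair 1 (adjusted p = 0.255), without pair 2 (0.101) or with DESeq2 and the block (0.356).

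Of 15 cell cycle genes that p53 is known to lower through p21 and the DREAM repressor complex, 15 rose, against 4.81% of all genes tested. Their median log2 ratio was 0.88. In edgeR without the block 0 of the 15 passed, although all 15 had an unadjusted p under 0.05. The list was chosen with earlier results of these data known, so the count is a description. The part of p53 in this rise was not tested. Mki67, a marker of dividing cells, went from 38.1 ± 7.84 to 74.0 ± 19.9 CPM, Top2a, a topoisomerase of dividing cells, from 51.9 ± 9.77 to 95.9 ± 24.2 CPM, and Ccna2, cyclin A2, from 20.2 ± 4.07 to 35.7 ± 7.80 CPM (SD, n = 3). In the 3 libraries labelled knockout the summed level of these 15 genes was 324, 437 and 533 CPM, against 189, 236 and 297 CPM. Immediate early genes, which answer growth factors and handling within minutes, fell in part. Of 18 tested, 8 fell and 0 rose, with a median of -0.26. The share that fell was 44.4%, against 4.01% of all genes tested, and 0 passed in edgeR without the block. The summed level was 1405 to 1455 CPM against 1591 to 1709 CPM. Egr1 went from 135 ± 19.9 to 74.2 ± 5.92 CPM, Fos from 21.5 ± 3.47 to 11.3 ± 0.636 CPM and Junb from 73.0 ± 13.6 to 52.9 ± 10.2 CPM (SD, n = 3), with log2 fold changes of -0.86, -0.93 and -0.46. The part of immediate early activity or of cell division in the values of the 32 genes was not tested. For the markers of cell types, the shares to set beside the counts are again 4.81% higher and 4.01% lower over all genes tested. Among them, 2 of 10 endothelial genes passed as higher (Emcn, 0.20, and Tek, 0.16) and 0 as lower. Of 6 fibroblast genes, 1 passed as higher (Dcn, 0.51) and 2 as lower (Col1a1, -0.33, and Col3a1, -0.24). Of 7 mural genes, 2 passed as lower (Cspg4, -0.62, and Pdgfrb, -0.44) and 0 as higher. Dcn was higher only in pair 2 (log2 ratios -0.0045, 0.64 and -0.39). Col3a1, Cspg4 and Pdgfrb were lower in pairs 1 and 2 and higher in pair 3. Emcn and Tek were higher and Col1a1 lower in 3 of 3 pairs. None of these markers passed in edgeR without the block. Of the haematopoietic and brain cell markers, 1 of each list was tested and 0 passed.

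**Figure D4:**
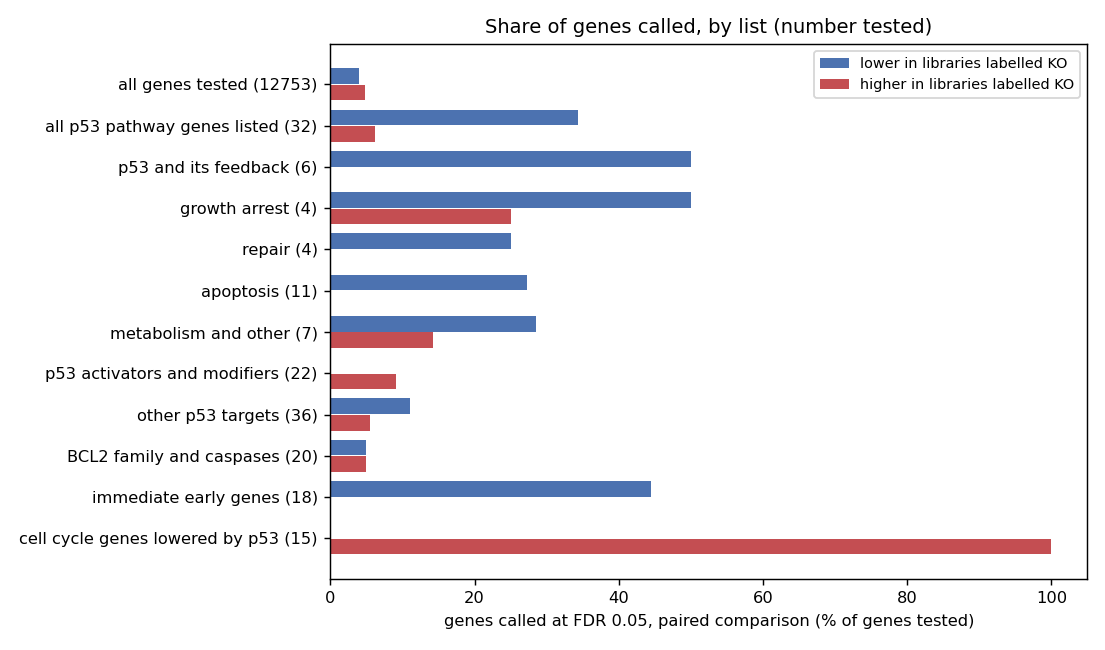
Share of tested genes that were lower (blue) or higher (red) in the libraries labelled knockout in the paired edgeR comparison, as bars from 0, with the number tested in brackets. Among the 32 p53 pathway genes 34.4% were lower, against 4.01% of all genes tested. The 36 further p53 targets stand at 11.1% lower. The cell cycle list stands at 100% higher, against 4.81% of all genes tested.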

How the data were processed

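Polyadenylated RNA of 6 libraries was sequenced. The authors deposited raw read counts per gene symbol, not normalised; per the submitters' processing notes, FastQC 0.11.8, Trim Galore 0.6.4, STAR 2.6.1d and Subread 1.6.4 with featureCounts were used on mm10 and GRCm38. The annotation, strand setting and treatment of multimapping reads were not given in the sources used here. Per the labels' protocols, 2 library kits, non-stranded and stranded, were used, without naming which sample had which.

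The tests on these counts ran in edgeR 4.0.16 under R 4.3.3 (filterByExpr, TMM, robust quasi-likelihood F test), first without and then with the replicate number as a block; DESeq2 1.42.0 was an alternative. CPM used TMM-scaled totals, and ratios within pairs added 0.5 reads. Deviations from group means correlated at 0.760, 0.845 and 0.636 between same-numbered libraries, so the numbers were taken to pair them; the labels do not state a pairing. Every pair of libraries differed by more than counting noise (lowest chi-square divided by its degrees of freedom, 5.44). An exact test could not go below p = 0.1 for 3 against 3 libraries or 0.25 for 3 pairs.

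Exon lengths and overlaps came from GENCODE M21, which matched 23376 of 24421 symbols and all 32 genes. Promoters came from RefSeq on GRCm38.p6, and Perp, Pmaip1, Tnfrsf10b, Zmat3, Trp53inp1, Ddb2, Rrm2b and Xpc had no window there. All 32 genes are named; the library values are given for Trp53, Mdm2 and each gene that passed, and for others where a result turned on them. From each further list, up to 3 genes per direction with the smallest paired p are named, of those that passed, plus Cdkn1a. Ier5, the fourth to fall in its list, was named after its values were seen. Single-gene values of some genes on the further lists are not reported here. The 32 genes, their grouping and the lists were chosen with earlier results of these data known, and the motifs after the values were seen.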

Additional observations from a re-analysis of the deposited data

How the results depend on the processing

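Counts of further lists and of all genes under the paired alternatives were added after the data were seen; the rest were planned. Without the block, 0 of the 32 genes were called with any library left out, with library size alone or with no filter on low counts. DESeq2 called 0 higher and 1 lower of the 32, and 11 higher and 6 lower of all genes. With the replicate block, 2 of the 32 were higher and 11 lower, and 613 and 511 of all genes. Leaving out 1 library gave 0 to 1 genes lower over all, and a median of the 32 between -0.14 and -0.10 (-0.135082 to -0.0957493). With library size only, the median was -0.16 (-0.163382 without and -0.15816 with the block), and 39.1% of all paired calls were higher in place of 54.5%.

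In the paired comparison, leaving out 1 pair gave 7 to 10 of the 32 lower and 2 higher each time, and 339 to 603 genes higher and 205 to 600 lower over all; pair 2 decided the lowest of these counts. With no replicate block the counts were 0 for the 32 and for every p53, BCL2, cell cycle and immediate early list, and 0 higher and 1 lower over all. DESeq2 with the block called 11 of the 13 and 255 genes higher and 106 lower over all, with 0 activators higher, 2 further targets lower, and 0 of the BCL2 and caspase list in either direction. Library size only with the block called all 13 and 2 more, with 1 activator and 8 further targets lower, and 0 higher and 4 lower of the BCL2 and caspase list. Leaving out pairs gave 0 to 2 activators higher and 0 to 1 lower, 2 to 8 further targets lower, and 0 to 1 higher and 0 to 1 lower in the BCL2 and caspase list. The cause was not tested.

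Signs turned for 6 of the 32 genes, none of which had passed. With 1 library left out and no block, values ran from -0.56 to 0.18 for Pmaip1, -0.98 to 0.41 for Perp, -0.18 to 0.087 for Plk3, -0.061 to 0.086 for Bax, -0.10 to 0.025 for Aen and -0.26 to 0.049 for Bbc3. With 1 pair left out they ran from -0.25 to 0.065 for Bbc3 and -0.046 to 0.045 for Bax. Depth limited Ddb2, Fas and Perp most.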
